A study of Mus musculus with 4 samples.

Results

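The 40 genes described here are interferon-stimulated genes and interferon regulatory factors (IRFs), chosen as a list of symbols and matched to the gene names printed in the array files. All 40 were on the array, which carries 36413 gene names in all. The genes were measured in 32D-EpoR cells, a mouse myeloid progenitor line that depends on interleukin-3 and carries an introduced receptor for erythropoietin (Epo), the hormone of red cell formation. All cells were first taken off the WEHI medium that feeds the line. The control group then received no Epo (0 U/ml) and the treated group received Epo at 10 U/ml. Every group is thus this 1 line after removal of its usual cytokine source, and no source used here states the time in Epo. Each group was measured on 2 single-colour arrays, from 2 experiments on cells of different passages, which limits the precision of every value.

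Interferons are secreted proteins that cells release after sensing foreign nucleic acid. Type I interferon acts through a complex holding STAT2 and IRF9 that binds a promoter sequence called the interferon-stimulated response element (ISRE). Interferon-gamma acts mainly through a gamma-activated sequence (GAS), and STAT5, which the Epo receptor activates, binds sites of the same kind. The listed genes fall into antiviral effectors and sensors (24 genes), GTPases induced by interferon-gamma (7 genes) and the IRF factors with STAT2 (9 genes). The comparison asked which of them differed between cells with and without Epo.

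Interferon genes moved in both directions with Epo. Levels are given as log2 scaled signal, the log2 of the spot intensity after each array was set to the same 75th percentile, and a change is the mean with Epo minus the mean without it. Of 40 genes, 34 could be tested, and limma called 16 of these (47.1%) at an adjusted p of 0.05, against 27.3% of all 17569 genes tested. The list was chosen with earlier results of these data known, so this contrast is no independent test. Of the 34, 7 rose, against 13.1% of all genes, and 9 fell, against 14.2% of all genes. The largest falls were those of Ifit1, Rsad2, Oasl1, Cxcl10 and Ifit2, all from the antiviral group, and the largest rises were those of the GTPase gene Igtp, of Ifi35, Zbp1 and Irf9. Ifit1 and Zbp1 were well above background on both arrays only in the group where they are high. They were kept through that group, which favoured the direction of their changes. Without replicate 2 of the Epo group 3 members rose and 6 fell, against 6.92% and 7.03% of all genes. With the replicate number as a block, 9 members rose and 10 fell, against 19.9% and 23.2% of all genes, or 43.1% in either direction. The values of the groups did not overlap in 27 of the 34 tested members and in 12085 of all 17569 genes. Lack of overlap alone therefore sets no gene apart.

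The arrays with Epo were brighter, so all changes are relative to the rest of each array. Over all genes the median change came to -0.062 with scaling and to 0.68 when it was left out. Without any scaling 19 members were called higher and 5 lower, against 46.9% and 2.08% of all genes. The 5 were Ifit1, Rsad2, Oasl1, Cxcl10 and Ifit2. The order of the genes is the same with and without this step, since it adds the same amount to each.

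Short stretches of promoter are shown for 7 members, as examples of how the binding sequences of interferon-activated factors lie in genes that moved differently. The first 5 genes fell with Epo, although Isg15 and Irf1 lay at 0.0074 and 0.039 without scaling, Igtp rose, and Irgm2 is the neighbour of Igtp and was not called. Each runs 5′ to 3′ on the strand of the gene, before the annotated start, and comes from RefSeq (build GRCm38.p6). Capitals mark matches to the ISRE core, searched as GAAANNGAAA and on the other strand as TTTCNNTTTC, and to the GAS, searched as TTCNNNGAA, which reads alike on both strands. Adjacent matches can overlap and are then 1 run of capitals.
Ifit1, chr19:34640739-34640888, plus strand: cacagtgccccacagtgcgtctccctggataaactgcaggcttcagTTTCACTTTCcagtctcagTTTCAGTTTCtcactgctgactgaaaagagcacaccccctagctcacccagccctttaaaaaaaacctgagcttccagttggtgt
Rsad2, chr12:26456453-26456602, minus strand: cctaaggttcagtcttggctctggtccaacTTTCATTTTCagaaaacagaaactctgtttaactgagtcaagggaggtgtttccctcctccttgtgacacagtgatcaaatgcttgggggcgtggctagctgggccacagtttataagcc
Isg15, chr4:156200819-156200968, minus strand: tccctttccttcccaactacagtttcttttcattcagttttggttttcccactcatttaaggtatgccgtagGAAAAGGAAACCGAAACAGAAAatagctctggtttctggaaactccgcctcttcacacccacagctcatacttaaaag
Cxcl10, chr5:92348990-92349139, minus strand: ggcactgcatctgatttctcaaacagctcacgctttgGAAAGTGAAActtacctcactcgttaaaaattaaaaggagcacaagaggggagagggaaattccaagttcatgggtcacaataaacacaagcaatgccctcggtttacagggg
Irf1, chr11:53769864-53770013, plus strand: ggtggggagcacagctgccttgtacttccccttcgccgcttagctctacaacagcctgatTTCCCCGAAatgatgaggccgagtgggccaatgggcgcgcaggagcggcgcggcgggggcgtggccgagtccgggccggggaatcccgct
Igtp, chr11:58199406-58199555, plus strand: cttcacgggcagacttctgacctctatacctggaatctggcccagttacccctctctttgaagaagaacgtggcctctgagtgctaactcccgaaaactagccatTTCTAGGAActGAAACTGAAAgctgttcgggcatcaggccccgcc
Irgm2, chr11:58214827-58214976, plus strand: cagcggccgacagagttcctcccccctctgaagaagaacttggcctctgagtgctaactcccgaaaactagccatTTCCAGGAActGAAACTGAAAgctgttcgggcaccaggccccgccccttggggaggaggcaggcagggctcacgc
The Cxcl10 stretch ends at base -101 before the start and the other 6 end at base -1. Ifit1 holds 2 separate ISRE cores, Isg15 holds 3 that overlap, and Rsad2 and Cxcl10 hold 1 each. Irf1 holds a GAS and no ISRE core. In Igtp and Irgm2 a GAS stands 2 bases before an ISRE core.

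**Figure D1:**
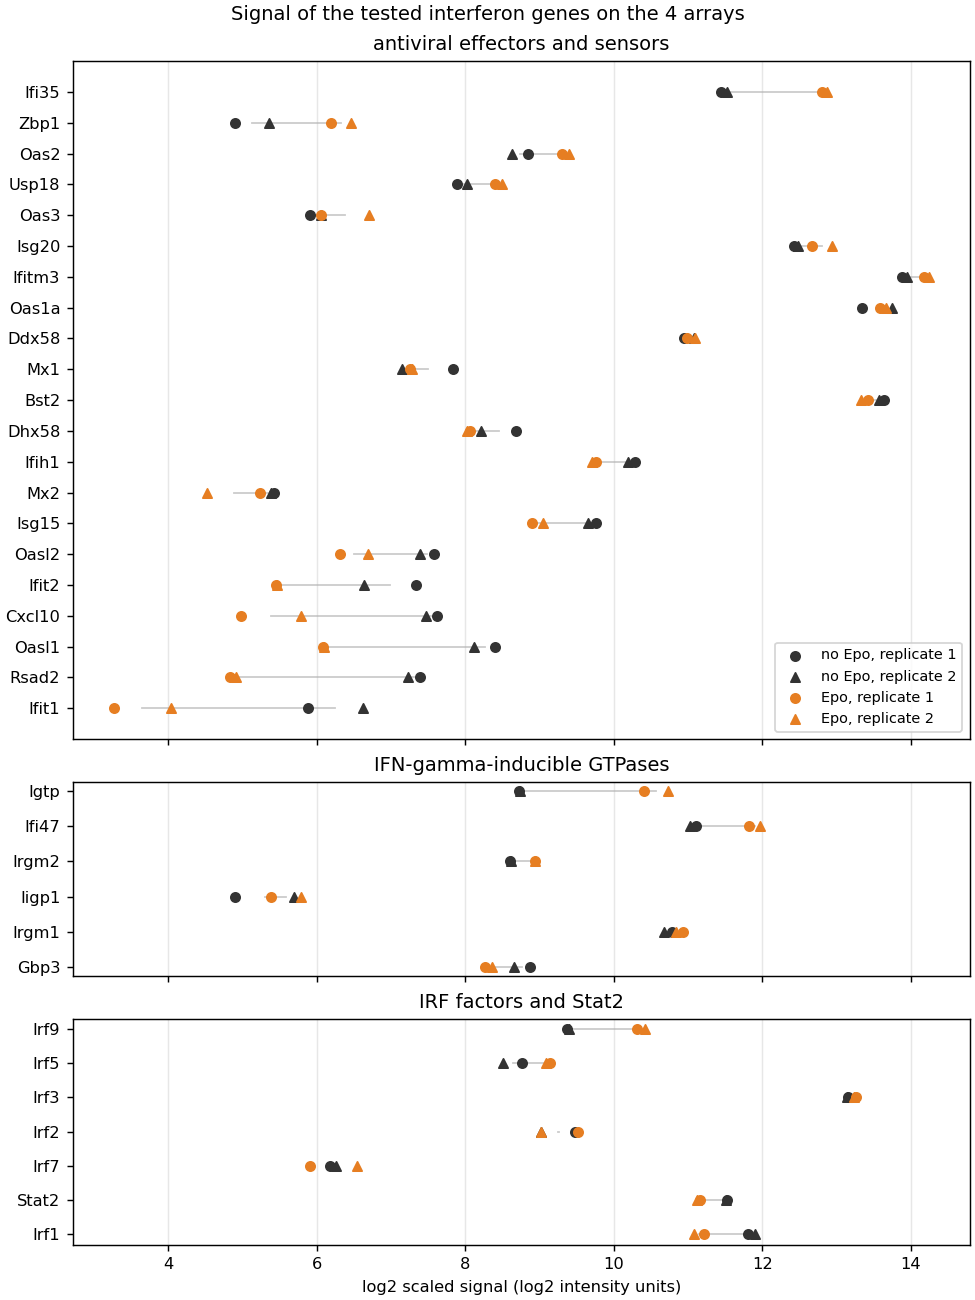
Log2 scaled signal (horizontal axis, log2 intensity units) of the 34 tested interferon genes on each of the 4 arrays, by group; dark marks are arrays without Epo, orange marks arrays with Epo, circles replicate 1 and triangles replicate 2, and the grey line joins the group means. Orange marks lie left of dark marks by the widest margin for Ifit1, Rsad2, Oasl1 and Cxcl10 and right of them by the widest margin for Igtp.

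Among the antiviral genes, 8 of 21 tested fell and 4 rose, with a median change of -0.23, which was 0.51 without scaling. In either direction 57.1% were called, against 27.3% of all genes. Ifit1 encodes a protein that holds on to viral RNA lacking the host's cap methylation. The probe lies at chr19:34723796-34723855 (mm9, as the array files give it). Its log2 scaled signal was 5.89 and 6.62 without Epo and 3.27 and 4.04 with Epo. The group without Epo was the higher on both arrays, and only 1 of the arrays with Epo was well above background. Ifit1 was thus kept only through the group without Epo, which favoured a fall. Ifit1 fell by 2.60 ± 0.37 (SE) on the log2 scale, a 6.07-fold difference (limma adjusted p 0.013). Ifit2, of the same gene cluster, lay at 7.33 and 6.63 without Epo and at 5.45 and 5.47 with Epo. The arrays with Epo nearly coincided, and those without Epo were farther apart. Ifit2 fell by 1.53 ± 0.26 (SE, limma adjusted p 0.019).

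Rsad2 encodes viperin, an enzyme that turns CTP into a chain terminator of viral polymerases. The probe lies at chr12:27127859-27127918 (mm9). Its log2 scaled signal was 7.39 and 7.23 without Epo and 4.83 and 4.91 with Epo, so the replicates of each group were close together and far from the other group. Rsad2 fell by 2.44 ± 0.12 (SE), or 5.43-fold (limma adjusted p 0.0040). Cmpk2, a nucleotide kinase gene that is next to Rsad2 on chromosome 12 with 0 protein-coding genes between them, fell by 2.31 ± 0.12 (SE, limma adjusted p 0.0040). Its values were 7.89 and 7.79 without Epo and 5.47 and 5.59 with Epo, and with normexp background its change was -1.56 (adjusted p 0.00099). Both neighbours were therefore lower on each array with Epo than on each array without it.

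Oasl1 and Oasl2 belong to the 2′-5′-oligoadenylate synthetase-like proteins, relatives of the enzymes whose product activates RNase L. Oasl1 stood at 8.40 and 8.12 without Epo and at 6.09 and 6.10 with Epo. It fell by 2.17 ± 0.14 (SE), or 4.50-fold (limma adjusted p 0.0046). Oasl2, its direct neighbour on chromosome 5, had 7.58 and 7.40 without Epo and 6.31 and 6.69 with Epo. Oasl2 fell by 0.99 ± 0.18 (SE, limma adjusted p 0.022), with no overlap between the groups. Without scaling Oasl2 lay at -0.24 and was not called (adjusted p 0.515), and without replicate 1 of the Epo group the adjusted p was 0.0695.

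Of the synthetases proper among the members, 1 of 3 tested was called, against 27.3% of all genes. Oas1c, a gene of this family from another list described below, was called lower at -0.73 (limma adjusted p 0.029). Without scaling Oas1c lay at 0.019. Oas2 rose, with 8.84 and 8.63 without Epo and 9.31 and 9.40 with Epo, a change of 0.61 ± 0.13 (SE, limma adjusted p 0.034). Oas2 lost its call when replicate 2 of the controls or either array with Epo was left out (adjusted p 0.109, 0.113 and 0.147). Oas3, which has 0 protein-coding genes between it and Oas2, had a difference of 0.39 ± 0.24 (SE) and Oas1a one of 0.084 ± 0.18 (SE), and neither was called (limma adjusted p 0.282 and 0.747). A second Oas1a probe gave 0.17. The Oas1 genes are close copies of each other, so which copy a probe reads is uncertain, and whether one probe reads several was not tested.

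Cxcl10 encodes a chemokine that draws activated T cells. Its log2 scaled signal was 7.61 and 7.46 without Epo and 4.98 and 5.79 with Epo. The arrays with Epo differed by more than those without, yet both lay below both controls. Cxcl10 fell by 2.15 ± 0.29 (SE), or 4.45-fold (limma adjusted p 0.012). Sizes of the falls among dim genes depended on the background correction. With normexp correction the changes of Ifit1, Rsad2 and Cxcl10 were -1.28, -1.44 and -1.32, each still called (adjusted p 0.0030, 0.0017 and 0.0016).

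Isg15, a ubiquitin-like protein joined to other proteins during an antiviral response, and Usp18, the protease that removes it and also restrains the interferon receptor, moved in opposite directions. Isg15 lay at 9.76 and 9.65 without Epo and at 8.90 and 9.04 with Epo, while without scaling its change was 0.0074. Isg15 fell by 0.74 ± 0.12 (SE, limma adjusted p 0.019), and its second probe fell by 0.70 ± 0.16 (SE). Usp18 lay at 7.89 and 8.02 without Epo and at 8.41 and 8.50 with Epo. Usp18 rose by 0.50 ± 0.12 (SE, limma adjusted p 0.044). The groups overlapped for neither gene. Both calls were fragile, since leaving out a single array ended the Isg15 call in 3 of 4 cases (adjusted p 0.0536 to 0.0995) and the Usp18 call in 4 of 4 (0.0866 to 0.209). Usp18 was also not called with the percentile over detected probes or quantile normalization (0.091 and 0.051).

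The cytosolic sensors of foreign nucleic acid differed among themselves. Ddx58, which encodes the RNA sensor RIG-I, lay at 10.94 and 11.07 without Epo and at 10.98 and 11.10 with Epo, so the groups overlapped. Its change was 0.028 ± 0.12 (SE, limma adjusted p 0.880). Ifih1, which encodes the long-RNA sensor MDA5, lay at 10.29 and 10.19 without Epo and at 9.76 and 9.70 with Epo. It fell by 0.51 ± 0.12 (SE, limma adjusted p 0.037), but lay at 0.23 without scaling. The call was lost without any one of the 4 arrays (adjusted p 0.0869 to 0.185). A second Ifih1 probe was well above background with Epo and on neither array without it, so that it was kept only through the group where it is high and gives no measure of the change. The mean of both probes, -0.075 and not called (adjusted p 0.656), holds the same limit. Dhx58, which encodes LGP2, a regulator of both, had a difference of -0.41 ± 0.19 (SE) and was not called (limma adjusted p 0.179).

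Zbp1, a sensor of Z-form nucleic acid that can start necroptosis, lay at 4.90 and 5.36 without Epo and at 6.20 and 6.46 with Epo. Only 1 of the arrays without Epo was well above background. Zbp1 was thus kept only through the group with Epo, which favoured a rise. Zbp1 rose by 1.20 ± 0.21 (SE), or 2.29-fold (limma adjusted p 0.020). With normexp background its change was 0.20 (adjusted p 0.184), and without replicate 2 of the Epo group the adjusted p was 0.0543. Ifi35, a leucine zipper protein of the interferon response, was the antiviral member with the largest rise. It lay at 11.44 and 11.52 without Epo and at 12.81 and 12.88 with Epo. Ifi35 rose by 1.36 ± 0.12 (SE), or 2.57-fold (limma adjusted p 0.0058).

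Restriction factors of membranes and virus particles showed small differences. Bst2 encodes tetherin, which ties budding virus to the cell surface, and lay at 13.64 and 13.56 without Epo and at 13.41 and 13.32 with Epo. Ifitm3, which blocks the fusion of virus with endosomes, lay at 13.87 and 13.95 without Epo and at 14.17 and 14.24 with Epo, each value the mean of 10 spots. The changes of -0.23 ± 0.12 (SE) for Bst2 and 0.29 ± 0.11 (SE) for Ifitm3 were not called (limma adjusted p 0.197 and 0.125). In both genes the groups did not overlap, as in 12085 of all 17569 genes. With normexp background Ifitm3 was called (0.43, adjusted p 0.030). The changes of Mx1 and Mx2, dynamin-like GTPases against RNA viruses, were -0.22 ± 0.25 (SE) and -0.52 ± 0.26 (SE), and neither was called (limma adjusted p 0.541 and 0.200). Without replicate 1 of the Epo group Mx2 lay at -0.88 (adjusted p 0.0490). Isg20, an exonuclease that degrades RNA, had a difference of 0.34 ± 0.14 (SE, limma adjusted p 0.140), and its second probe one of 0.50 ± 0.13 (SE).

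**Figure D2:**
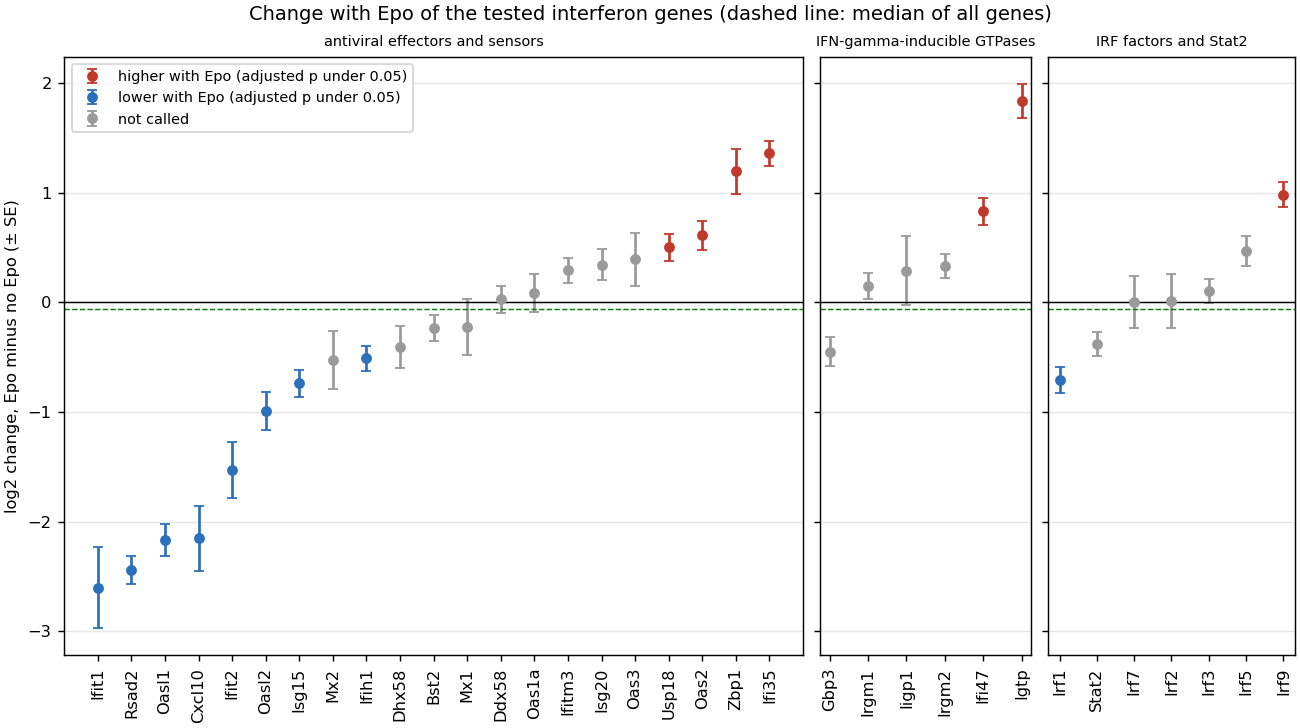
Log2 change with Epo (vertical axis, Epo minus no Epo, bars ± SE of the limma fit) of the 34 tested genes in their 3 groups, with called rises in red, called falls in blue and the median of all genes, -0.062, as a dashed line. The antiviral genes run from -2.60 for Ifit1 to 1.36 for Ifi35, and the GTPase genes from -0.45 for Gbp3 to 1.84 for Igtp.

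Of the 6 tested GTPases, which act in defence against intracellular parasites and bacteria, 2 rose and 0 fell by limma (33.3% called, against 27.3% of all genes). At an unadjusted p under 0.05, 3 were higher and 1 lower, against 3380 and 4127 of all 17569 genes. The median change was 0.31, or 1.05 without scaling. With the replicate block 3 rose and 0 fell, against 19.9% and 23.2% of all genes. Igtp, also called Irgm3, has its probe at chr11:58020927-58020986 (mm9). It lay at 8.73 and 8.74 without Epo and at 10.41 and 10.73 with Epo, each value the mean of 10 spots. The arrays without Epo nearly coincided, those with Epo lay farther apart, and both of the latter were above both controls. Igtp rose by 1.84 ± 0.15 (SE), or 3.57-fold (limma adjusted p 0.0056). Ifi47, a further immunity-related GTPase, lay at 11.10 and 11.02 without Epo and at 11.82 and 11.96 with Epo. Ifi47 rose by 0.83 ± 0.12 (SE, limma adjusted p 0.014), although without replicate 2 of the Epo group the adjusted p was 0.0678.

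Irgm2, which has 0 protein-coding genes between it and Igtp, lay at 8.61 and 8.61 without Epo and at 8.94 and 8.93 with Epo. Its change of 0.33 ± 0.11 (SE) was not called (limma adjusted p 0.089), and with the replicate block the adjusted p was 0.044. Irgm1, which is tied to autophagy, had a difference of 0.15 ± 0.12 (SE, limma adjusted p 0.390), and its second probe gave 0.54 ± 0.17 (SE). Iigp1 was dim, with 4.90 and 5.69 without Epo and 5.38 and 5.79 with Epo, and its groups overlapped (change 0.29 ± 0.32 SE, limma adjusted p 0.530). Gbp3, a guanylate-binding protein, was the tested GTPase with the lowest change, at 8.87 and 8.65 without Epo and 8.27 and 8.36 with Epo. Its change of -0.45 ± 0.13 (SE) was not called (limma adjusted p 0.071), and it was called with the percentile over detected probes (-0.57, adjusted p 0.036) and lay at 0.30 without scaling.

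Among the 7 tested transcription factors 1 rose and 1 fell, with a median change of 0.012, or 0.76 without scaling. The share called was 28.6%, close to the 27.3% of all genes. With the replicate block 2 rose and 2 fell, against 19.9% and 23.2% of all genes. Irf9, the DNA-binding subunit of the type I interferon complex, has its probe at chr14:56228806-56228865 (mm9). It lay at 9.37 and 9.40 without Epo and at 10.31 and 10.42 with Epo. Irf9 rose by 0.98 ± 0.12 (SE), or 1.98-fold (limma adjusted p 0.0095). Stat2, which brings the activation domain to the same complex, lay at 11.53 and 11.50 without Epo and at 11.16 and 11.11 with Epo. The change of -0.38 ± 0.11 (SE) was not called (limma adjusted p 0.066), and the groups did not overlap, as in most genes tested. With the replicate block its adjusted p was 0.035, it was also called with the intensity trend, quantile normalization and the percentile over detected probes (0.042, 0.036 and 0.032), and it lay at 0.37 without scaling.

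Irf1 is an activator that interferon-gamma induces through a GAS. It lay at 11.81 and 11.90 without Epo and at 11.21 and 11.08 with Epo, without overlap. Irf1 fell by 0.71 ± 0.12 (SE, limma adjusted p 0.020), but its change without scaling was 0.039. The call was lost when replicate 2 of the controls or either array with Epo was left out (adjusted p 0.0638, 0.0700 and 0.102). Irf2, which competes with Irf1 for the same sites, had a difference of 0.012 ± 0.25 (SE). Its arrays separated by replicate number instead, at 9.48 and 9.51 for replicate 1 and at 9.03 and 9.02 for replicate 2.

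Irf3, which sensors activate to start interferon transcription, had a narrow spread, with 13.15 and 13.14 without Epo and 13.26 and 13.24 with Epo. Its change of 0.10 ± 0.11 (SE) was not called (limma adjusted p 0.523). Irf7, which amplifies the interferon response, lay at 6.17 and 6.26 without Epo and at 5.91 and 6.54 with Epo, so the arrays with Epo enclosed the controls (limma adjusted p 0.987). Irf5, which acts downstream of Toll-like receptors, lay at 8.77 and 8.51 without Epo and at 9.14 and 9.08 with Epo. Its change of 0.47 ± 0.14 (SE) was not called (limma adjusted p 0.068), and with the replicate block its adjusted p was 0.038, and with normexp background 0.035.

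The remaining 6 members were left out by the detection rule, by which 1 group or both must have a probe well above background on each of its arrays. Irf4 and Irf8, factors of lymphoid and myeloid development, Ifi44 and Oas1g exceeded background clearly on 0 of 4 arrays. Ifit3 and Gbp2 lay just outside the rule. Ifit3 had 3.09 and 2.71 without Epo and 4.55 and 1.78 with Epo, and only replicate 1 with Epo was well above background. Gbp2 had 4.94 and 4.02 without Epo and 3.92 and 4.49 with Epo, well above background on 1 array of each group. Just inside the rule were Ifit1, which passed through the group without Epo, and Zbp1, which passed through the group with Epo, so that both were bound to be high there. The other 32 were well above background on all 4 arrays, and a fit limited to such genes called 6 members higher and 8 lower, against 14.3% and 16.9% of the genes in that fit.

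**Figure D3:**
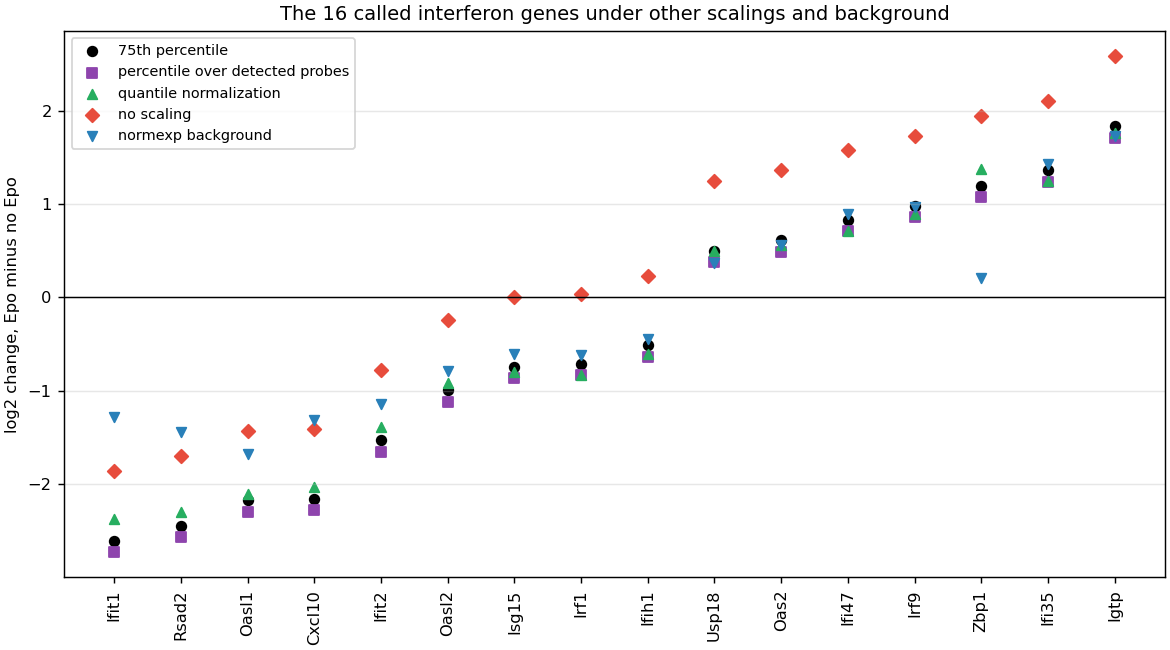
Log2 change with Epo (vertical axis) of the 16 called interferon genes under the 75th percentile scaling and 4 other settings. Without scaling (red diamonds) Isg15, Irf1 and Ifih1 lie just above 0, at 0.0074, 0.039 and 0.23, and with normexp background (blue triangles) Zbp1 drops to 0.20 and the falls of Ifit1 and Rsad2 shrink to -1.28 and -1.44.

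Genes above the members in the pathway were described from lists of their own. Of 17 tested genes for interferons, receptors and their kinases, 4 rose and 0 fell by limma (23.5% called, against 27.3% of all genes). At an unadjusted p under 0.05, 5 were higher and 1 lower, against 3380 and 4127 of all 17569 genes. The median change was 0.10, or 0.85 without scaling. Socs1 and Socs3, feedback inhibitors of JAK kinases, rose by 6.60 ± 0.28 (SE) and 2.68 ± 0.11 (SE), with 5.37 for Socs1 under normexp background, and the kinase gene Jak2 rose by 0.44 ± 0.11 (SE, limma adjusted p 0.048). Jak2 was not called with quantile normalization, with the percentile over detected probes (adjusted p 0.113 and 0.099) or without any one array (0.132 to 0.238). The receptor chains Ifnar1, Ifnar2, Ifngr1 and Ifngr2 had differences of -0.52, -0.15, -0.49 and 0.27, and none was called (limma adjusted p 0.056, 0.417, 0.170 and 0.201). With the replicate block Ifngr1 was called lower (adjusted p 0.025). The list then had 5 rises and 1 fall, against 19.9% and 23.2% of all genes. The interferon genes Ifnb1, Ifng, Ifna2 and Ifna4 were not tested, because they had no probe that passed the detection rule.

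Of 19 tested genes for nucleic acid sensing upstream of interferon, 5 rose and 1 fell, with a median change of 0.34, or 1.08 without scaling. The share called was 31.6%, against 27.3% of all genes. With the replicate block 8 rose and 4 fell, against 19.9% and 23.2% of all genes. Myd88, the adaptor of most Toll-like receptors, rose by 1.36 ± 0.17 (SE) and Traf3, which links sensors to the kinases of IRF3, by 0.77 ± 0.12 (SE). Ticam1 rose by 0.68, Mavs, the mitochondrial adaptor of RIG-I and MDA5, by 0.64 and Trim25, a ligase that acts on RIG-I, by 0.61. Rnf135, another ligase for RIG-I, fell by 0.45 but had a change of 0.30 without scaling (limma adjusted p 0.010, 0.017, 0.038, 0.023, 0.022 and 0.049 in that order). The call of Ticam1 was lost with quantile normalization and with the percentile over detected probes (adjusted p 0.057 and 0.067), and that of Rnf135 with normexp background and with the mean of its probes (0.051 and 0.060). Leaving out any one array ended the call of Ticam1 (0.0601 to 0.158), of Mavs (0.0611 to 0.126), of Trim25 (0.0568 to 0.118) and of Rnf135 (0.117 to 0.261), and that of Traf3 was lost in 3 of 4 cases (0.0534 to 0.0827).

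Of 43 further interferon-inducible genes tested, 2 rose and 5 fell, with a median of -0.042, so 16.3% were called against 27.3% of all genes. Without scaling 20 rose and 1 fell, against 46.9% and 2.08% of all genes. With the replicate block 9 rose and 8 fell, against 19.9% and 23.2% of all genes. Parp14, an ADP-ribosyltransferase, was among the rises (1.01 ± 0.13 SE). Cmpk2 and Tor3a, an ATPase of the endoplasmic reticulum (-0.92 ± 0.11 SE), led the falls. Oas1c, Pml and Samd9l were the others, at -0.73, -0.68 and -0.68, although without scaling they lay at 0.019, 0.068 and 0.070. Their calls held in 1 of 4 cases each when an array was left out, with adjusted p of up to 0.123, 0.189 and 0.112. Of 17 tested genes of MHC class I antigen presentation 2 rose and 0 fell by limma (11.8% called, against 27.3% of all genes). At an unadjusted p under 0.05, 2 were higher and 1 lower, against 3380 and 4127 of all 17569 genes. With the replicate block 3 were higher and 1 lower, against 19.9% and 23.2% of all genes. The median change was -0.029, or 0.72 without scaling. The rises in the fit without the block were Nlrc5, the transactivator of class I genes (0.74 ± 0.18 SE, limma adjusted p 0.043), and the immunoproteasome subunit gene Psmb10 (0.48 ± 0.12 SE, limma adjusted p 0.049). Nlrc5 was not called with quantile normalization, with the percentile over detected probes or with the mean of its probes (adjusted p 0.053, 0.052 and 0.378), and Psmb10 was not called with the percentile over detected probes (0.105). Leaving out 1 array ended the call of Psmb10 in 4 of 4 cases (0.105 to 0.242) and that of Nlrc5 in 3 (0.0651 to 0.161). The class I heavy chain genes H2-K1 and H2-D1 had differences of -0.029 and 0.039, neither called (limma adjusted p 0.878 and 0.922).

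**Figure D4:**
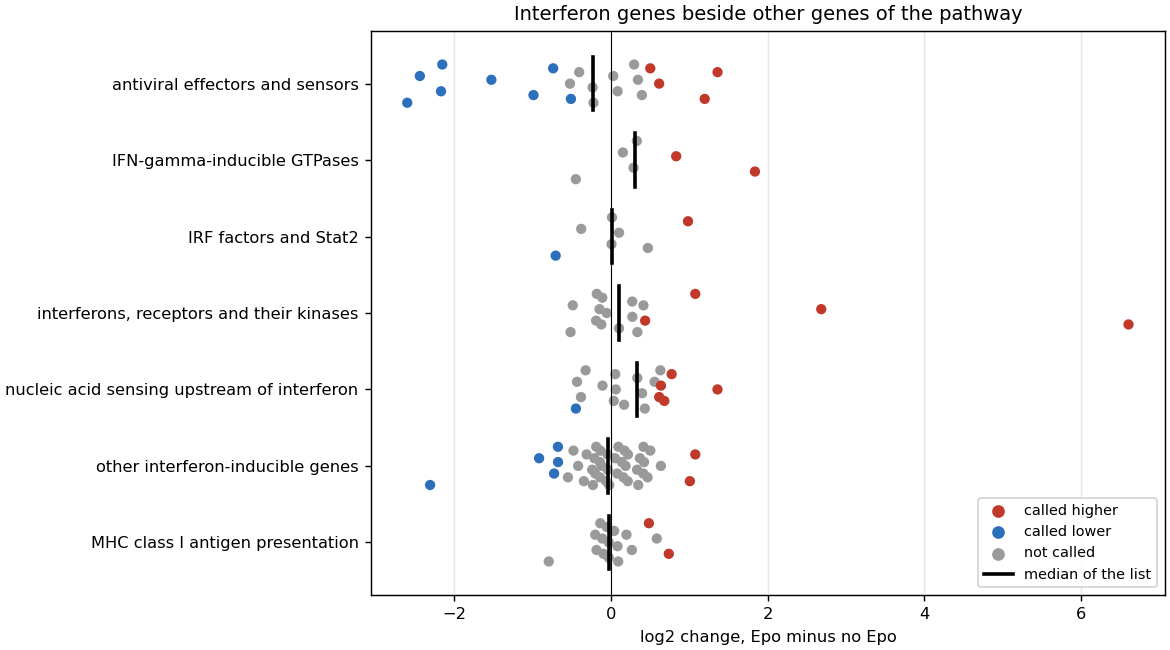
Log2 change with Epo (horizontal axis) of each tested gene of the 3 member groups and of 4 other lists of the interferon pathway, with called rises in red, called falls in blue and the median of each list as a black bar. The leftmost points are 5 antiviral genes and Cmpk2, from -2.60 to -1.53, and the point at 6.60 is Socs1.

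The sequences shown above were compared with all annotated starts. RefSeq windows from 250 bases before to 50 after a start were at hand for 33 of the 40 members, as 40 windows. An ISRE core occurred in 47.5% of these windows and in 3.44% of all 32851 windows of the same length. A GAS occurred in 27.5% of the members' windows and in 8.30% of all. The members were listed as interferon-stimulated genes and IRFs, so their higher shares go with the choice of list and say nothing about Epo. Such matches are letters in a window and do not show that a factor binds there. In Bst2 and Ifitm3 the GAS overlapped an ISRE core.

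Both motifs occurred among genes that rose, fell and were not called. Of the 9 genes that fell, 5 held an ISRE core, namely Ifit1, Rsad2, Isg15, Cxcl10 and Ifih1, the last after its start. Ifit2 and Irf1 held a GAS alone, and Oasl1 and Oasl2 held neither motif. Of the 4 genes that rose and have a window, Igtp held both, Ifi35 a GAS after its start, and Ifi47 and Irf9 neither. Of the 14 windowed genes that were tested and not called, 10 held an ISRE core and 6 a GAS.

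The arrangement in Igtp and Irgm2 was rare. A GAS 2 bases before an ISRE core, in either orientation, occurred in 5 of the 32851 windows (0.0152%), those of Igtp, Irgm2, Tgtp1, Tgtp2 and Gm12185. With Irgm2 shifted by 30 bases, the Igtp and Irgm2 stretches matched at 103 of 120 bases (85.8%), so they are not independent occurrences. The likeness of the other windows was not measured. The changes of these neighbours were 1.84 for Igtp and 0.33 for Irgm2, and the difference between them was not tested. This arrangement was noticed in the sequences and not set down beforehand.

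**Figure D5:**
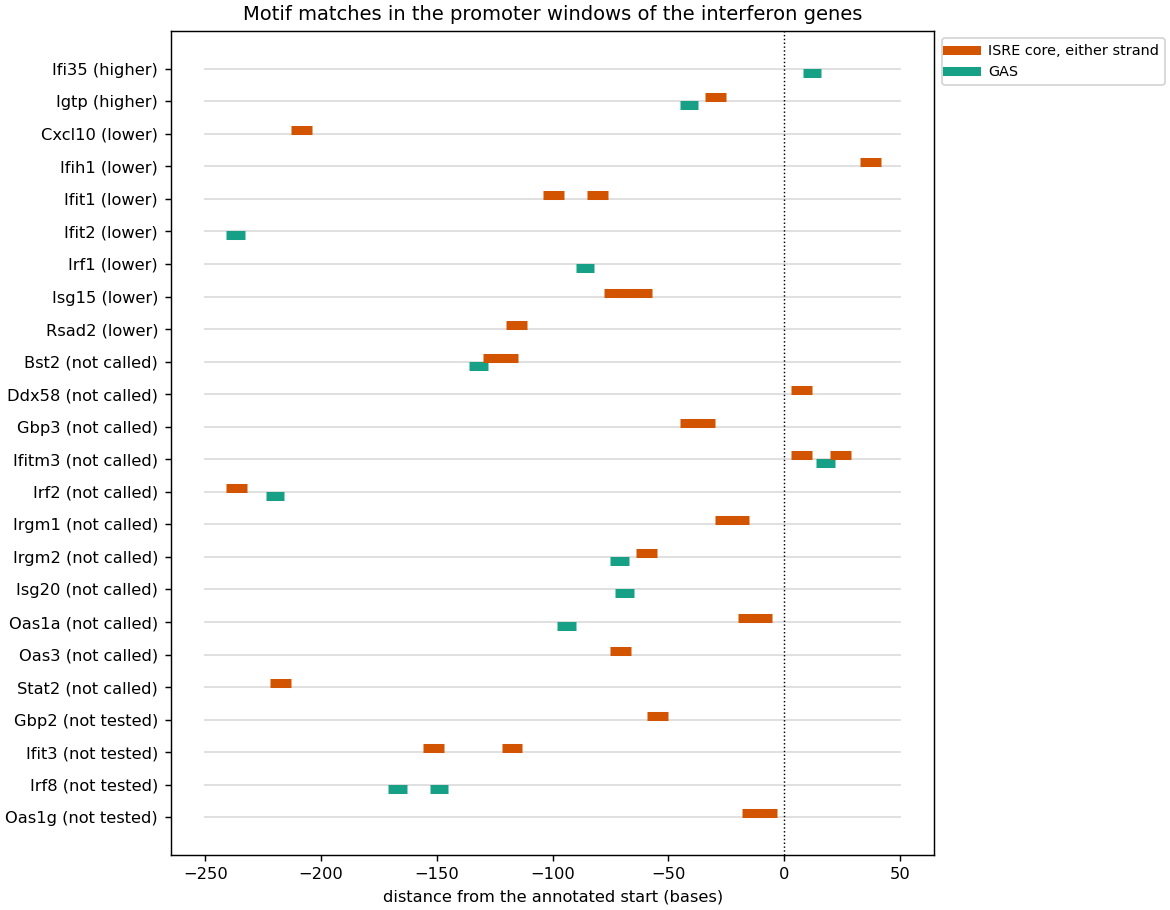
Positions of ISRE core matches (orange, either strand) and GAS matches (green) by distance from the annotated start in bases, for the 24 members with any match; each row is a gene, with its call in brackets. Igtp and Irgm2 share a GAS beside an ISRE core, at -45 and -75 respectively for the first base of the GAS, and genes that fell and genes that were not called both hold ISRE cores.

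Markers were used to check the cells. Of 13 myeloid progenitor markers on the array, 12 were tested, among them Mpo, Elane, Prtn3, Ctsg and Csf2rb on all 4 arrays, while Kit was well above background on none. Csf2rb2 was higher and Cebpa lower, with a log2 summed signal of 17.90 to 17.93 without Epo and 17.73 to 17.82 with Epo. Of the plasmacytoid dendritic cell markers, 6 of 10 were tested and 0 were called by limma at an adjusted p of 0.05. With an unadjusted p under 0.05, 2 were lower, against 4127 of all 17569 genes. The replicate block also gave 2 lower, against 23.2% of all genes. Siglech, a defining marker of plasmacytoid dendritic cells, was bright on all 4 arrays by 1 probe (15.58 to 15.78), with a difference of -0.056. Its other probe was well above background on none (1.31 to 2.64). Ccr9, Ly6d, Spib and Klk1, from the same list, were not well above background on any array. Bst2 is itself one of the 40 genes. The list had a log2 summed signal of 15.99 to 16.15 without Epo and 15.97 to 15.99 with Epo. Macrophage markers were tested in 6 of 12 cases, with Emr1 and Fcgr1 higher and Csf1r lower with Epo and a summed signal of 12.62 to 12.64 without Epo and 12.91 to 13.03 with Epo. Lymphoid markers were tested in 5 of 12 cases, and Cd3e, Cd3d, Cd4 and Cd79b fell. The summed signal was 15.04 to 15.41 without Epo and 14.46 to 14.73 with Epo. Most of this sum came from Nkg7, the remaining tested marker, at 14.92 and 15.32 without Epo and 14.37 and 14.64 with Epo. Nkg7 was not called, although all 5 were lower at an unadjusted p under 0.05, against 4127 of all 17569 genes. All 5 were also lower with the replicate block, against 23.2% of all genes. Of the stromal markers, 5 of 12 were tested, Pecam1 was higher and Pdgfrb and Cdh5 were lower. Their summed signal was 10.87 to 10.88 without Epo and 10.96 to 11.11 with Epo. Pecam1 was the brightest of the 5, at 9.73 and 9.58 without Epo and 10.31 and 10.50 with Epo. The median change of the stromal list was -0.36. The collagen genes Col1a1, Col1a2 and Col3a1 were not tested. The part of these differences in the changes of the interferon genes was not tested. In RNA from a bulk culture, fewer cells that express a gene and less RNA per cell cannot be told apart.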

How the data were processed

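Total RNA (200 ng per sample) of 32D-EpoR cells was labelled with Cy3 and hybridised to Agilent mouse arrays, 1 array per sample, all on 1 slide with 1 scan, per the file headers. Per the file headers, the deposited processed intensity was made with Feature Extraction 10.1.1.1, which subtracted background, removed spatial trends and set surrogate values for the dimmest spots; the deposited raw mean and local background intensity served 1 alternative. Limma is named, with no version, in the submitters' processing notes. The 75th percentile intensity was 224 and 250 without Epo and 347 and 454 with Epo, 41.3% to 47.9% of 55681 probes were well above background, and 0 gene spots were saturated.

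Log2 processed intensities were set to a common 75th percentile over 59305 gene spots, outlier spots were dropped (9 probes lost) and spots of a probe averaged. A probe was kept (23735 were) if 1 group or both had it well above background on each array, and a gene, by the name in the file, was its brightest kept probe. Epo was compared with no Epo by limma 3.58.1 in R 4.3.3, two-sided, with Benjamini-Hochberg adjustment over 17569 genes; the steps were tested on simulated data. Fold changes of dim genes are limited by background. Probe positions relative to exons or untranslated regions were not analysed here.

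The design text gives 2 experiments on different passages, and replicate numbers were read as these, which pairs the samples; across genes, which are no independent replicates, the deviations of samples sharing a number correlated at 0.386. P-values rest on the spread between these samples, which limma moderates with the spread of all tested genes. In the fit without the block, differences between replicate numbers are part of that spread. Every member is named; from each other pathway list come up to 2 called rises and 2 called falls of largest size, and Jak2, Ticam1, Mavs, Trim25, Samd9l, Oas1c, Pml, H2-K1, H2-D1, the interferon and receptor genes and Tgtp1, Tgtp2 and Gm12185 were chosen after their values or sequences were seen. An item counted in the lists is not reported here by name. The members and lists were chosen with earlier results of these data known. Alternatives covered background, scaling, filter, probes, outlier spots, replicate block, intensity trend and leaving out each array.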

Additional observations from a re-analysis of the deposited data

How the results depend on the processing

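Of the 16 called members, 8 (Igtp, Irf9, Ifit1, Rsad2, Oasl1, Cxcl10, Ifit2 and Ifi35) lost their call, among the alternatives run for each (14 for Ifit1, 15 for the others), only without a dim-probe filter; Ifit1 was removed by the filter for genes well above background on all 4 arrays. Without scaling 19 members were called higher and 5 lower, and 8609 of all genes were called, 8244 higher and 365 lower; Irf1 lay at 0.039, Isg15 at 0.0074 and Ifih1 at 0.23, against falls with scaling. Without the filter 0 members and 0 genes were called higher or lower by limma, with 17 of 40 members and 7157 of 36408 genes at an unadjusted p under 0.05, and the adjusted p of the 16 called members ran from 0.108 to 0.179. With the replicate block 7571 genes were called, 3499 higher and 4072 lower, of which 4722 were called in both fits; among members only the calls of Irgm2, Irf5 and Stat2 changed. Leaving out 1 array at a time, the lone array being assumed to vary like the other group, gave 9 to 13 members called (3 to 6 higher, 6 to 7 lower) and 2280 to 3964 genes (1102 to 2019 higher, 1178 to 1945 lower). The percentile over detected probes called 1878 genes higher and 3651 lower, and 6 members higher and 11 lower. Of 508 member values under alternatives, 416 kept direction and side of the threshold, 41 lost a call, 22 gained one and 29 changed sign, 3 of them of called members (above) and 26 of members not called. The latter were, without scaling, Gbp3 0.30, Stat2 0.37, Mx2 0.22, Dhx58 0.34, Bst2 0.51 and Mx1 0.52; with normexp, Iigp1 -0.21 and Irf7 -0.15; with the percentile over detected probes, Irf7 -0.12, Irf2 -0.11, Irf3 -0.023, Ddx58 -0.097 and Oas1a -0.042; with quantile normalization, Irf2 -0.068, Irf3 -0.011, Ddx58 -0.067 and Oas1a -0.00051. Leaving out 1 array gave -0.11 to 0.68 for Iigp1, -0.31 to 0.32 for Irf7, -0.57 to 0.12 for Mx1, -0.037 to 0.094 for Ddx58, -0.12 to 0.29 for Oas1a and -0.23 to 0.26 for Irf2. The causes were not tested. Dim genes such as Ifit1 and Zbp1 are limited by signal over background.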
